A study of Mus musculus with 6 samples.

Results

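The nuclear genes for the subunits of the mitochondrial respiratory chain and ATP synthase were compared between the kidneys of WT and Selenbp1-KO mice. Members were the non-control probes whose gene name in the scanner output begins with Ndufa, Ndufb, Ndufc, Ndufs, or Ndufv and a digit, is Sdha to Sdhd, or begins with Uqcr, Cox4 to Cox8, or Atp5, with pseudogene names left out. This gave 83 genes read by 128 probes, of 36778 gene names and 56097 probes tested in all. Every one of the 83 genes passed the filter on detection, and 81 of them were well above background on all 6 arrays. By function 35 genes belonged to complex I, 4 to complex II, 8 to complex III, 18 to complex IV, and 15 to complex V. Ndufa4 was counted with complex IV, of which it is a subunit despite its name. Ndufa4l2, Atp5s (now Dmac2l), and Atp5sl (now Dmac2) match the names but are not subunits of the mature complexes, and they were kept apart. Genes encoded in mitochondrial DNA, assembly factors, and the nuclear subunit genes Cyc1, Ndufab1, and Usmg5 do not match the names and are given separately.

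RNA came from the left kidneys of male C57BL/6J mice, 8 weeks old and fasted for 20 h, with 3 WT mice (replicates 2, 3, and 4) and 3 Selenbp1-KO mice (replicates 1, 2, and 3), of which the labels name no further allele or treatment. WT mice came from a commercial breeder, and the knockout line was described by its makers elsewhere, so that differences of breeding cannot be told apart from genotype. Each RNA was labeled with Cy3 and hybridized to 1 one-color Agilent array of 60-base probes. All levels below are log2 signals relative to the 75th percentile of the same array, and all differences are Selenbp1-KO minus WT on this log2 scale. Signals of single arrays are listed in the order of the replicate numbers, 2, 3, and 4 for WT and 1, 2, and 3 for Selenbp1-KO. The threshold for calling a gene altered was an unadjusted p of 0.05 in limma, and the p-values printed are adjusted over all probes tested.

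Selenbp1 itself fell by 2.96 (standard error 0.0976, adjusted p = 0.0021 from limma). Its signals were 7.02 to 7.07 on the WT arrays and 3.98 to 4.13 on the Selenbp1-KO arrays, where it was still well above background. The probe of its close homolog Selenbp2 fell by 3.22 (standard error 0.101), and whether these probes read each other's transcripts was not tested. All 6 arrays lay on 1 slide. WT replicates 2 and 3 were in its first row, and WT replicate 4 and the 3 Selenbp1-KO arrays were in its second row, so position on the slide is in part confounded with genotype. Between 51.8% and 55.5% of the spots of an array were well above background. All 6 proximal tubule markers, 5 markers of the thick ascending limb and distal tubule, 5 of the collecting duct, and 4 of podocytes were well above background on all arrays, as the label kidney requires. The summed signal of the proximal tubule markers ranged from 8.85 to 9.07 on the WT arrays and from 8.92 to 8.99 on the Selenbp1-KO arrays. Under the threshold of an unadjusted p of 0.05 were 1 of 5 markers of the thick ascending limb and distal tubule and 1 of 4 of leukocytes, 2 of 5 of skeletal and heart muscle (both near the background), and none of the 3 of endothelium, the 3 of testis, or the 3 of the adrenal. The 3 red blood cell markers were higher in Selenbp1-KO kidneys, all under this threshold, and their summed signal ranged from 7.99 to 8.41 in WT and from 8.49 to 9.06 in Selenbp1-KO. Their part in the differences below was not tested, and in whole tissue a change in the number of cells of a type and a change in RNA per cell cannot be told apart.

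The respiratory chain passes electrons from NADH through complex I and from succinate through complex II to coenzyme Q, and on through complex III, cytochrome c, and complex IV to oxygen. Complexes I, III, and IV pump protons out of the matrix, and complex V, the ATP synthase, makes ATP from their return. The proximal tubule is among the tissues that depend most on this pathway, because it reabsorbs the bulk of the filtered solutes and makes its ATP mainly from fatty acids.

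Transcription factors with known roles at respiratory genes include NRF1, the ETS factor GABP, YY1, and the estrogen-related receptor ESRRA. Promoter windows of 300 bases in RefSeq (build GRCm38.p6, 250 bases before the start and the rest after it) were held for 67 of the member genes, in 73 windows. Both strands were searched for 4 motifs, none of which contains another. GCGCATGC, the core of the NRF1 motif, was in 13.7% of the member windows against 2.71% of all 32851 windows. CCGGAAGT, the ETS motif, was in 6.85% against 3.89%. ATGGCGGC, the YY1 core, was in 12.3% against 2.24%. TCAAGGTCA, the ESRRA motif, was in 2.74% against 0.423%. These are counts of letters and not of bound sites. The 10 genes with the NRF1 core (Ndufa6, Ndufa8, Ndufa11, Sdhb, Uqcrc1, Uqcr11, Cox6a1, Atp5g2, Atp5k, and Atp5l) differed between genotypes by 0.04 to 0.26, and the 7 with the YY1 core by −0.05 to 0.25, so that a motif went with both low and high values. The windows of Ndufa7 (YY1 core), Cox6a1 (NRF1 core on both strands, overlapping), and Cox8a (ETS, opposite strand) are shown with the motif in capitals, beside that of Cox7a1, in whose window none of the 4 motifs was found. Cox7a1 and Ndufa7 are shown because they were under the threshold. Each runs 5′ to 3′ on the gene's strand, from 250 bases before the start to 30 bases past it.
Cox7a1, chr7:30183921-30184200, plus strand: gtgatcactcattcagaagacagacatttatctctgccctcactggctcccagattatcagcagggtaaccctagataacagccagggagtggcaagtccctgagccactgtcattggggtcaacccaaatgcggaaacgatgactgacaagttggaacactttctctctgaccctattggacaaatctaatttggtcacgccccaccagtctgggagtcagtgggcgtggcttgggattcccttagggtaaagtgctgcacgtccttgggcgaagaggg
Ndufa7, chr17:33824322-33824601, plus strand: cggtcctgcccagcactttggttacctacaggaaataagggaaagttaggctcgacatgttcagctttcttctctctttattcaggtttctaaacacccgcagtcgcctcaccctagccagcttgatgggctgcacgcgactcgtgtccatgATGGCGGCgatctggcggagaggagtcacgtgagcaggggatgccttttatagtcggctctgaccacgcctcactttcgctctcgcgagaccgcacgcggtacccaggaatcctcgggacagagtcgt
Cox6a1, chr5:115348929-115349208, minus strand: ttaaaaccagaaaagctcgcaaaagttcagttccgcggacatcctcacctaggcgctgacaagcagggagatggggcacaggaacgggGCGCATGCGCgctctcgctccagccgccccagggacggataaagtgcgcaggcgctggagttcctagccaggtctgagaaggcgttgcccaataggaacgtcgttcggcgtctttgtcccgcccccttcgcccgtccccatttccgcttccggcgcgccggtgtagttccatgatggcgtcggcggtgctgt
Cox8a, chr19:7217587-7217866, minus strand: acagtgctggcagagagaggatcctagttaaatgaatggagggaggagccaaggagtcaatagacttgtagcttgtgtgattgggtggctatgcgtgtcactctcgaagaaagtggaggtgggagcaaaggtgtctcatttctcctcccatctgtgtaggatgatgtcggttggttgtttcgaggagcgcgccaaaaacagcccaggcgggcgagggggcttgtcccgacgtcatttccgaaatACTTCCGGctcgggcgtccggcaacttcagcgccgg

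The subunit genes were on average slightly higher in Selenbp1-KO kidneys, by amounts that single genes seldom carried past the threshold. The median difference over the 83 genes was 0.13, a fold of 1.09, and 78 of the 83 genes were higher. With quantile normalization the median was 0.02 with 54 genes higher, and with the authors' processed values it was 0.04 with 63 higher. The median of all 36778 genes was also 0.13, with 68.4% higher (0.00 with quantile normalization), and over the 18275 genes well above background on all 6 arrays the median was 0.02, with 55.1% of the genes higher. At an unadjusted p under 0.05 (limma), 3 of the 83 genes were altered, all 3 higher, against 7.99% of all genes, 6.87% of all genes in that direction, and 5.48% of the genes well above background on all 6 arrays. This share of 3.61% was thus below the background. No member passed at an adjusted p under 0.05, and the lowest adjusted p was 0.279. An exact permutation test over 3 against 3 arrays cannot go below 0.1.

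**Figure D1:**
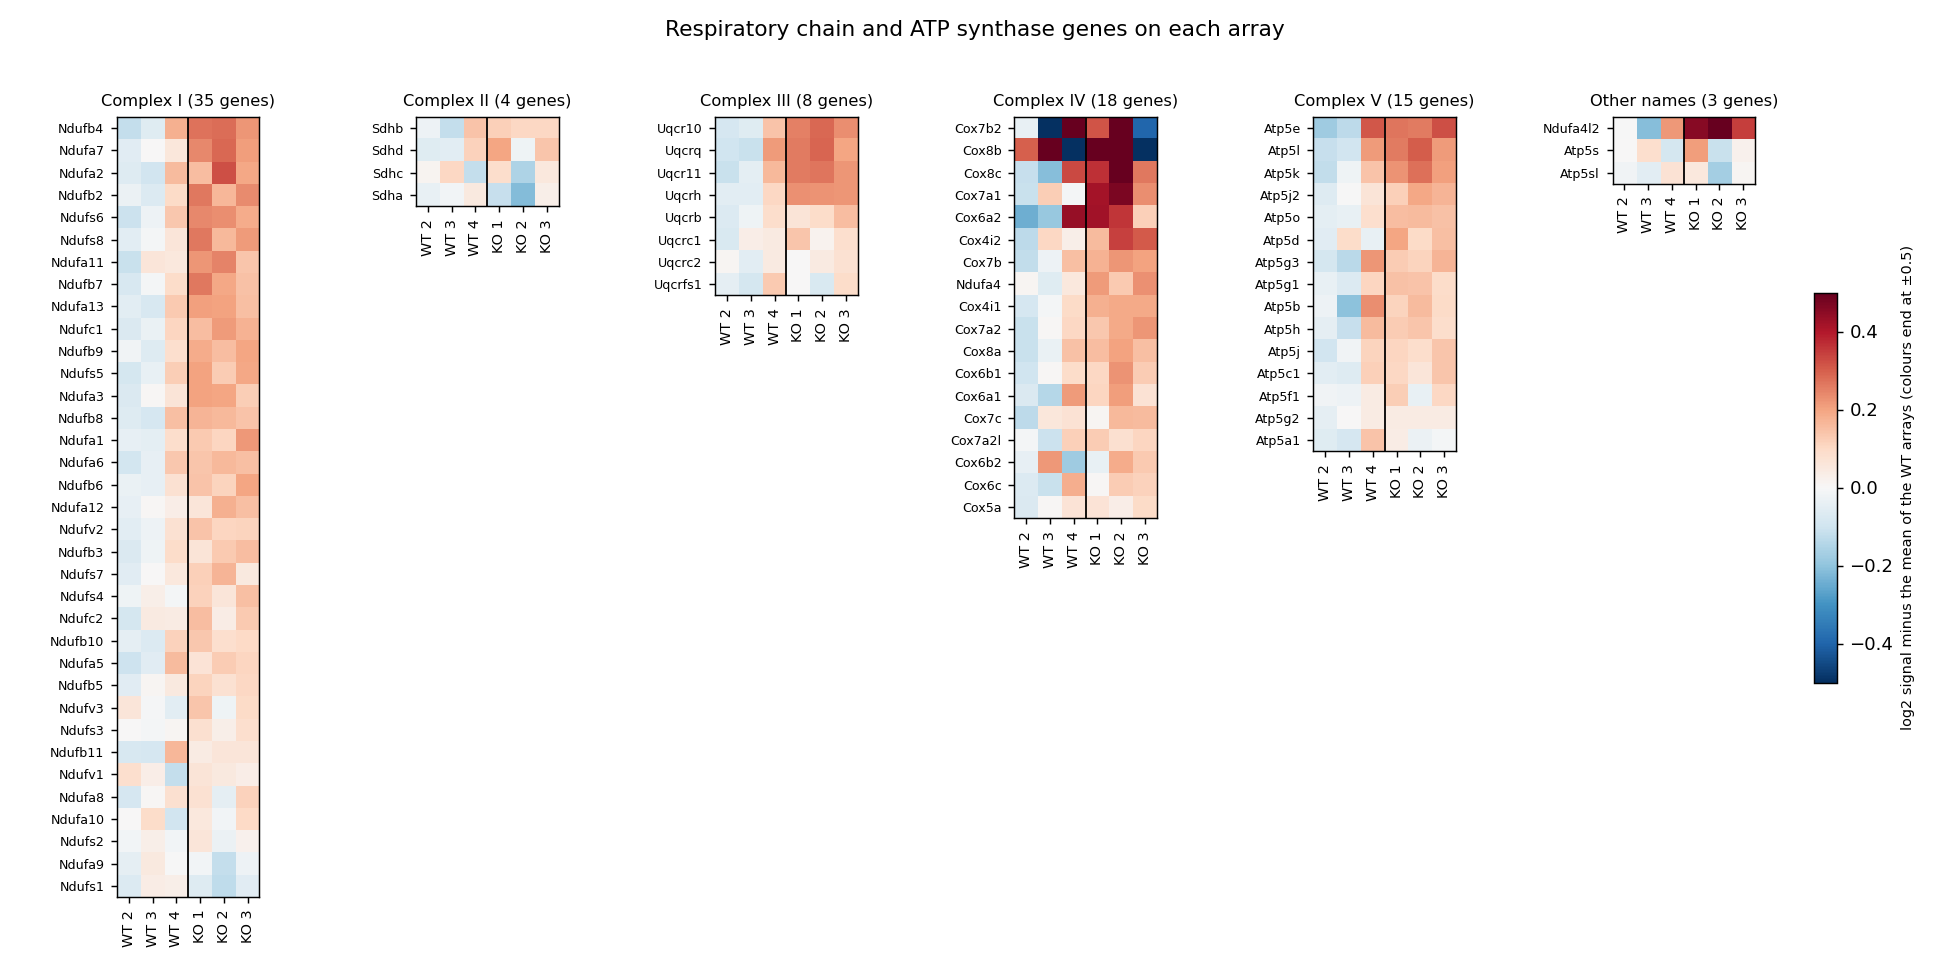
Each row is 1 of the 83 genes and each column 1 array, with the color giving the log2 signal minus the mean of the 3 WT arrays (red higher, blue lower, colors ending at ±0.5), and genes sorted within each complex by their difference. The Selenbp1-KO columns are mostly red, WT replicates 2 and 3 mostly blue, and WT replicate 4 lies in between, with array medians of 0.14 for each Selenbp1-KO array, −0.06 and −0.03 for WT replicates 2 and 3, and 0.09 for WT replicate 4. With quantile normalization 54 of the 83 genes remain on the higher side.

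Relative to the mean of the WT arrays, the median over the 83 genes was −0.06, −0.03, and 0.09 on the WT arrays and 0.14 on each Selenbp1-KO array. The 3 Selenbp1-KO arrays were thus close to each other, and WT replicate 4, which shares their slide row, lay nearer to them than to the other WT arrays. WT replicate 4 was the highest WT array for 67 of the 83 genes. For 37 genes all 3 Selenbp1-KO arrays exceeded all 3 WT arrays, which is 44.6% of the members, against 14.1% of all genes and 19.3% of the genes well above background on all 6 arrays in either direction, and 10.2% and 12.8% in that direction. No member had every Selenbp1-KO array below every WT array. With slide row as a block, a fit in which only WT replicate 4 stands against the Selenbp1-KO arrays, the median was 0.05, 57 genes were higher, and none was under the threshold, against 2.76% of the genes well above background that were under it and higher and 2.23% that were under it and lower. Without WT replicate 4 the median was 0.19 and 22 genes were under the threshold, against 8.79%. In that fit 4 members, Cox6a2, Cox8c, Atp5e, and Ndufa4l2, passed at an adjusted p under 0.05 (lowest adjusted p = 0.049 from limma), against 22.7% of all genes and 2.15% of the genes well above background, and Cox8c was not well above background on any array.

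The count under the threshold depended on how the variance was modeled. The median SD within a genotype was 0.0824 over the members, whereas the prior SD that limma shared over all probes, dim ones included, was 0.188. With a prior that follows the signal (trend and robust options) 33 members were under the threshold, all higher, against 12.2% of the genes well above background. With the methods' t-test 27 members were under an unadjusted p of 0.05, all higher, against 11.8%, and none after Benjamini-Hochberg adjustment. With the trend and robust options 1 member, Cox7a1, passed at an adjusted p under 0.05 (adjusted p = 0.0211 from limma), against 0.424% of all genes and 0.799% of those well above background. Trend alone gave 20 members against 12.4%, and a filter keeping only probes well above background gave 18 against 10.2%. Scaling mattered as well, with 25 members for the authors' processed values against 14.1%, while quantile normalization gave 13 members, 15.7%, close to its background of 14.1%.

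**Figure D2:**
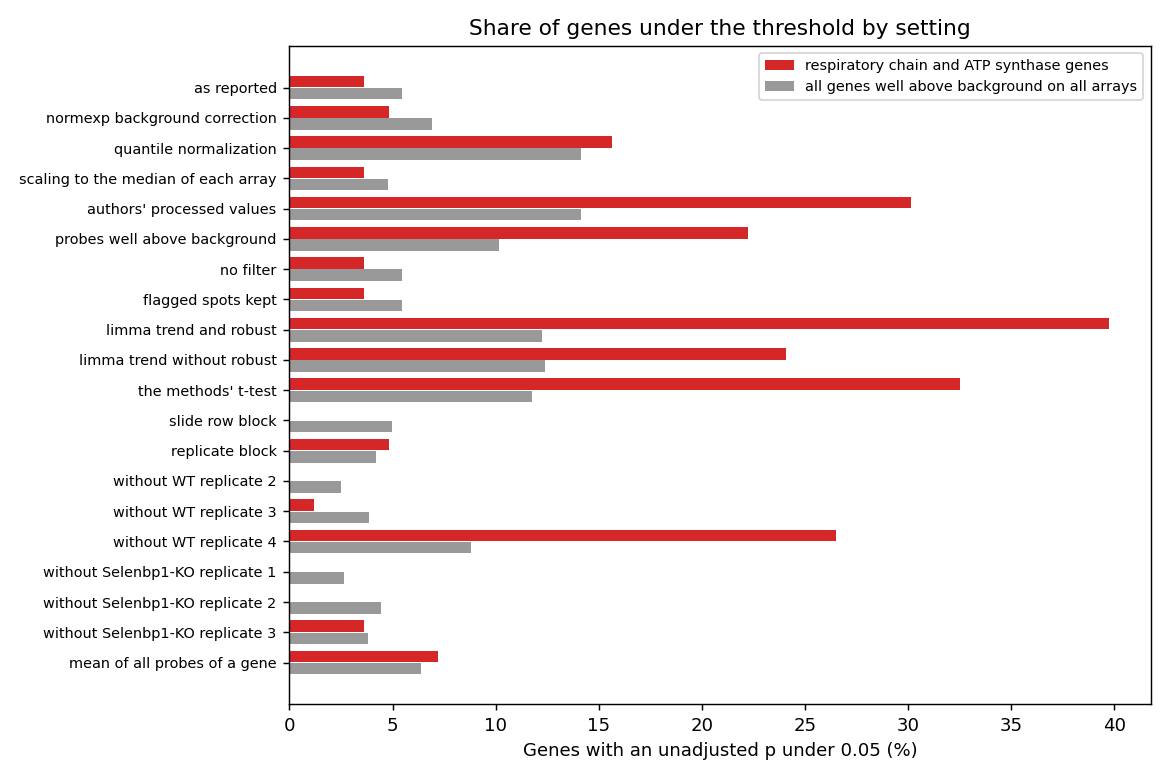
Bars give the percent of the 83 genes (red) and of all genes well above background on all 6 arrays (grey) with an unadjusted p under 0.05, for the reported fit and each alternative. The red bar is below the grey bar in the reported fit (3.61% against 5.48%) and reaches 39.8% with the trend and robust options, while it is absent with slide row as a block and without WT replicate 2, Selenbp1-KO replicate 1, or Selenbp1-KO replicate 2.

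The differences were of like size in complexes I, III, IV, and V and smallest in complex II, and differences between complexes were not tested. The median difference was 0.13 in complex I, 0.05 in complex II, 0.17 in complex III, 0.18 in complex IV, and 0.13 in complex V, and with quantile normalization these became 0.04, −0.07, 0.06, 0.10, and 0.01. Higher genes were 33 of 35 in complex I, 2 of 4 in complex II, 8 of 8 in complex III, 18 of 18 in complex IV, and 15 of 15 in complex V, against 25, 0, 5, 13, and 9 with quantile normalization. Complex II thus had genes on both sides of 0 on the reported scale and all of its genes below 0 with quantile normalization, where the other complexes were mixed. The 18 genes of complex IV include Cox8c and Cox7b2, which were near the background and differed by 0.39 and 0.57. Over the 10 broadly expressed subunits of complex IV the median was 0.16. Genes whose genotypes did not overlap were 20 of 35 in complex I, 0 of 4 in complex II, 3 of 8 in complex III, 8 of 18 in complex IV, and 5 of 15 in complex V. The shares in either direction were 14.1% of all genes and 19.3% of the genes well above background on all 6 arrays. The 4 genes of complex II are too few to set against these shares.

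**Figure D3:**
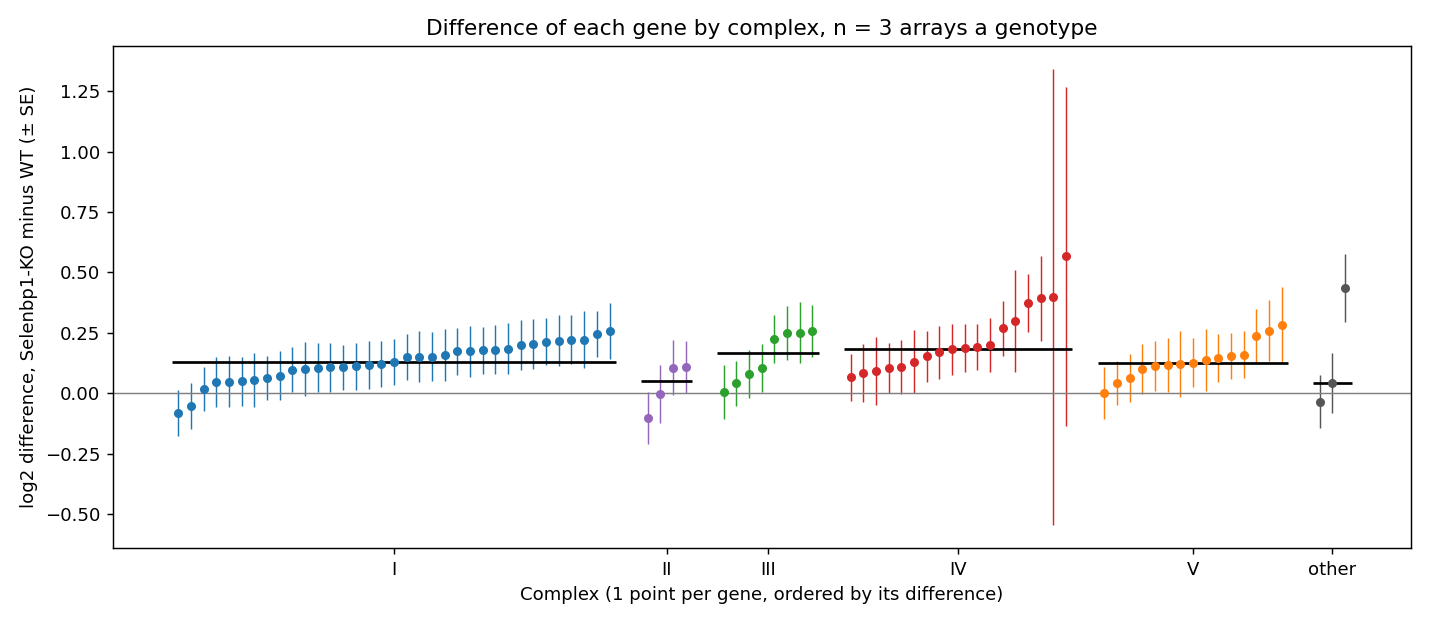
Each point is 1 gene with its log2 difference, Selenbp1-KO minus WT, and its standard error, ordered within the complex, and the black line is the median of the complex. Most points of complexes I, III, IV, and V lie between 0 and 0.3 with standard errors of 0.09 or more, the 4 genes of complex II lie on both sides of 0, and the long bars in complex IV are Cox8b and Cox7b2. With quantile normalization the median of complex II falls to −0.07 and that of complex V to 0.01.

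In complex I, the entry point of electrons from NADH, the 7 conserved core subunits had a smaller median difference than the 28 others. This was not tested. The median was 0.06 for the core genes and 0.15 for the others, and with quantile normalization it was −0.04 and 0.06. With slide row as a block the medians were closer, 0.05 and 0.07. The ranges overlapped, from −0.08 to 0.21 in the core genes and from −0.05 to 0.26 in the others. Ndufa7, a small accessory subunit, was the one complex I gene under the threshold. Its probe (NM_023202, mm9 chromosome 17, 33975141 to 33975200) had signals of 6.04, 6.10, and 6.16 in WT and of 6.34, 6.39, and 6.31 in Selenbp1-KO. The genotypes did not overlap. The difference was 0.25 (standard error 0.0954, adjusted p = 0.279 from limma), a fold of 1.19. Ndufb4, an accessory subunit of the membrane arm, had the most positive difference, 0.26 (standard error 0.117, adjusted p = 0.279 from limma), from 6.85, 6.91, and 7.15 in WT to 7.24, 7.25, and 7.19 in Selenbp1-KO. Its genotypes did not overlap either, but WT replicate 4 lay closer to the Selenbp1-KO arrays than to the other WT arrays. Ndufs1, the largest iron-sulfur subunit of the electron input arm, had the most negative difference, −0.08 (standard error 0.0953, adjusted p = 0.704 from limma). Its signals were 5.45, 5.56, and 5.55 in WT and 5.46, 5.39, and 5.46 in Selenbp1-KO, and they overlapped.

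Complex II, the succinate dehydrogenase, feeds electrons from the citric acid cycle and is the one complex made of nuclear genes alone. Sdha, its flavin-binding subunit, had signals of 5.76, 5.79, and 5.85 in WT and of 5.68, 5.58, and 5.83 in Selenbp1-KO. Replicate 3 of Selenbp1-KO lay among the WT arrays, and the difference was −0.10 (standard error 0.108, adjusted p = 0.675 from limma). Sdhb, the iron-sulfur subunit, had 7.20, 7.10, and 7.36 in WT and 7.34, 7.32, and 7.32 in Selenbp1-KO, a difference of 0.11 (standard error 0.109), with WT replicate 4 above all Selenbp1-KO arrays. The membrane anchors Sdhc and Sdhd differed by 0.00 and 0.11 (standard errors 0.12 and 0.114), and the genotypes overlapped in both. Sdhb and Sdhd were the higher members of this complex, and with quantile normalization they were −0.05 and −0.0029.

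In complex III, which passes electrons from coenzyme Q to cytochrome c, the 5 small subunits had a higher median than the 3 larger ones matched by name, without a test of this. The median was 0.25 for Uqcrb, Uqcrh, Uqcrq, Uqcr10, and Uqcr11 and 0.04 for Uqcrc1, Uqcrc2, and Uqcrfs1, and with quantile normalization it was 0.13 and −0.06. At their edges the groups were close, with 0.10 for Uqcrb and 0.08 for Uqcrc1 (standard errors 0.0993 and 0.0992). With slide row as a block Uqcrb was 0.02 and Uqcrc1 0.03. Uqcr10 had the most positive difference, 0.26 (standard error 0.108, adjusted p = 0.279 from limma). Its probe had signals of 7.40, 7.42, and 7.62 in WT and of 7.73, 7.77, and 7.71 in Selenbp1-KO. The genotypes did not overlap, and a second RefSeq probe of Uqcr10 gave 0.27 and was under the threshold. Uqcrfs1, the Rieske iron-sulfur protein, had the smallest difference, 0.01 (standard error 0.112), with signals of 5.90, 5.86, and 6.08 in WT and of 5.95, 5.87, and 6.03 in Selenbp1-KO. Its genotypes overlapped, and its sign turned in 8 of 19 alternatives.

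Complex IV, cytochrome c oxidase, contains several subunits with a form found in most tissues and a second form known from heart, skeletal muscle, brown fat, lung, or testis. The 10 broadly expressed subunits had a median of 0.16 (0.03 with quantile normalization) and none was under the threshold. Cox7a1, the form of subunit 7a known from heart, muscle, and brown fat, was under it. The Cox7a1 probe is shown because the single altered complex IV subunit rests on it. It lies in NM_009944, its ends in mm9 (chr7:30970337-30970948) are further apart than its own length, as for a probe across an exon junction, and its 60 bases are all part of the measurement.
Cox7a1 probe: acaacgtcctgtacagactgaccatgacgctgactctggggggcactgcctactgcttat

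Cox7a1 had signals of 3.12, 3.35, and 3.22 in WT and of 3.64, 3.70, and 3.46 in Selenbp1-KO. The genotypes did not overlap, and here WT replicate 4 was not the highest WT array. The difference was 0.37 (standard error 0.12, adjusted p = 0.279 from limma), a fold of 1.29 with a 95% interval of 0.08 to 0.67 on the log2 scale. It was higher in all 19 alternatives, by 0.32 to 0.44, and under the threshold in 14 of them, but not with slide row as a block (0.38), with the replicate block (0.34), or without WT replicate 2, Selenbp1-KO replicate 1, or Selenbp1-KO replicate 2. Cox7a2, the form of the same subunit found in most tissues, differed by 0.18 (standard error 0.105, adjusted p = 0.378 from limma).

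Cox8b, the heart, muscle, and brown fat form of subunit 8, varied more among mice than any other subunit gene well above background on all arrays, and the variation did not follow genotype. Its signals were 2.02, 2.24, and 0.90 in WT and 2.89, 3.48, and −0.01 in Selenbp1-KO. Selenbp1-KO replicate 2 was the highest array and Selenbp1-KO replicate 3 the lowest, and the difference of 0.40 had a standard error of 0.945 (adjusted p = 0.869 from limma). The markers of fat were detected as well, with 5 of 5 well above background on all arrays. Ucp1, the uncoupling protein of brown fat, had 0.39, 0.02, and −1.32 in WT and 1.29, 2.06, and −3.42 in Selenbp1-KO. Cidea, a lipid droplet protein of the same tissue, had 2.56, 2.37, and 1.35 in WT and 3.30, 3.59, and −0.09 in Selenbp1-KO. Ucp1, Cidea, and Cox8b were thus all highest in Selenbp1-KO replicates 2 and 1 and lowest in Selenbp1-KO replicate 3, next to WT replicate 4. The fat marker Plin1 had this order too, with −2.65 in Selenbp1-KO replicate 3. The fat markers Adipoq and Cidec were also highest in Selenbp1-KO replicates 2 and 1 but lowest in WT replicate 4. They had −0.62 and 1.04 there, against 0.19 and 1.63 in Selenbp1-KO replicate 3. The summed signal of the 5 fat markers ranged from 2.56 to 4.04 on the WT arrays and from 2.44 to 5.39 on the Selenbp1-KO arrays. Of the 5 markers of skeletal and heart muscle, none was well above background on all arrays and 3 were so on no array. Myh7 and Tnnt2 of that list were under the threshold and all 5 were higher, but Myh7 was well above background on no array and Tnnt2 on 1. All 5 fat markers were higher as well, with a median of 0.74, and none was under the threshold. Cox7a1 had the order of Ucp1 and Cidea among the Selenbp1-KO arrays, highest in replicate 2 and lowest in replicate 3, but not among the WT arrays. The part of fat or muscle cells in the Cox7a1 difference was not tested.

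**Figure D4:**
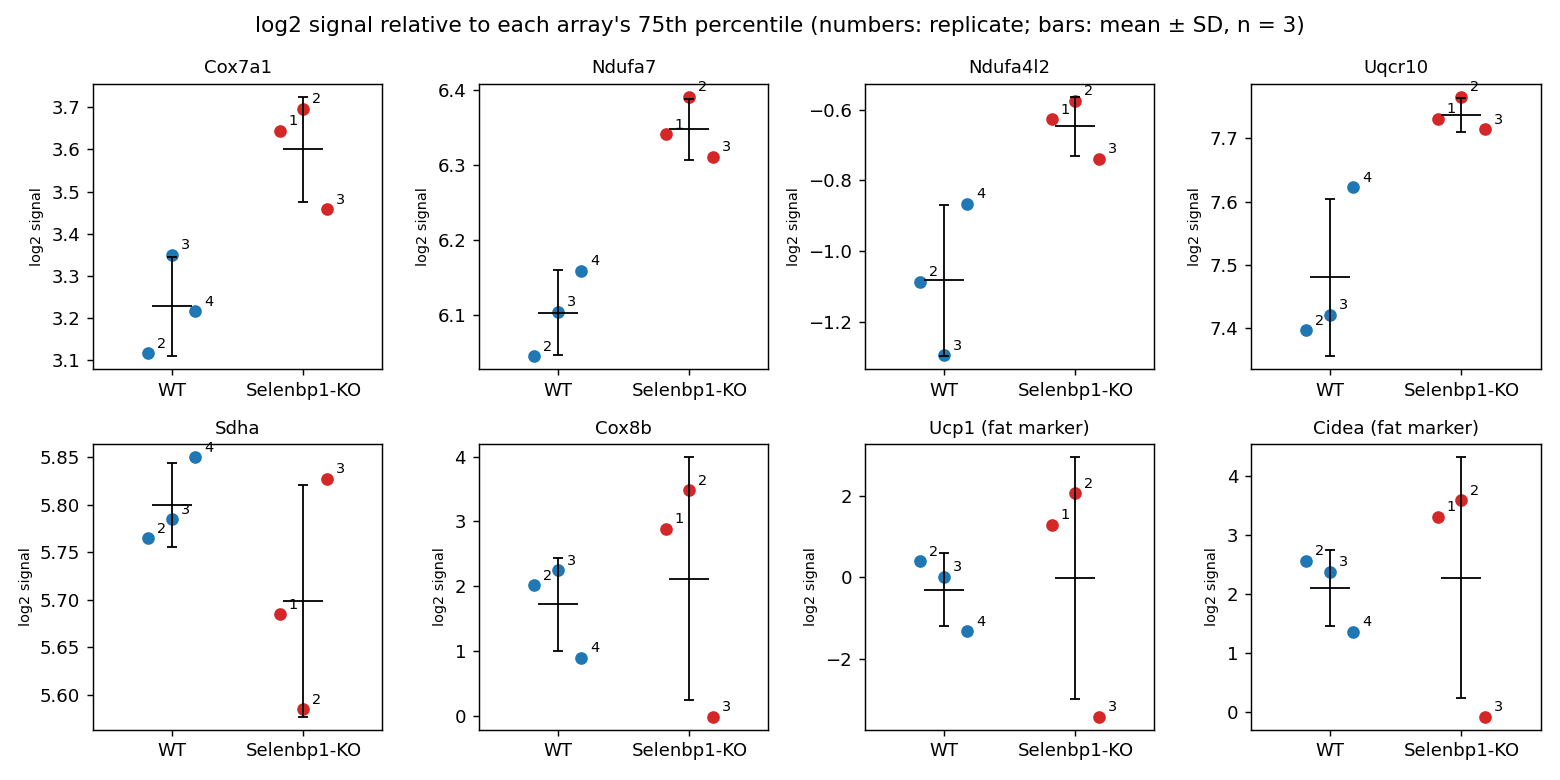
Points are the log2 signals of the 6 arrays (blue WT, red Selenbp1-KO, labeled by replicate number) for 6 subunit genes and the fat markers Ucp1 and Cidea, with the mean and SD of 3 arrays in black, each panel on its own axis. Genotypes do not overlap for Cox7a1, Ndufa7, Ndufa4l2, and Uqcr10 and overlap for Sdha, and the order of the arrays for Cox8b (highest 3.48, lowest −0.01) follows that for Ucp1 and Cidea at both ends.

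The other tissue forms of complex IV were not under the threshold. Cox4i2, the form of subunit 4 known from lung and low oxygen, had −1.87, −1.63, and −1.71 in WT and −1.58, −1.40, and −1.43 in Selenbp1-KO, without overlap, and differed by 0.27 (standard error 0.115, adjusted p = 0.279 from limma). Cox4i1, its common counterpart, differed by 0.19 (standard error 0.0994, adjusted p = 0.335 from limma), also without overlap. The sizes of both thus lay within 1 standard error of each other. Cox6a2, the muscle form of subunit 6a, had −0.31, −0.26, and 0.37 in WT and 0.35, 0.29, and 0.05 in Selenbp1-KO, where WT replicate 4 was the highest array, and differed by 0.30 (standard error 0.212, −0.14 with slide row as a block). Its counterpart Cox6a1 differed by 0.13 (standard error 0.13) and turned to −0.15 with quantile normalization. Neither form of subunit 6a gave a direction beyond its spread. Cox6b2, the testis form of subunit 6b, differed by 0.09 (standard error 0.141) and Cox6b1 by 0.15 (standard error 0.105), and Cox8a, the common form of subunit 8, by 0.17 (standard error 0.109), turning to −0.06 with quantile normalization. Cox8c, a testis form, was not well above background on any array, and Cox7b2 was so on 1 Selenbp1-KO array only, so that neither is read further. Cox5a, a subunit of the matrix side, had the smallest difference of the complex, 0.07 (standard error 0.0966), and turned to −0.06 with quantile normalization. Ndufa4, a late-joining subunit, differed by 0.19 (standard error 0.0964, adjusted p = 0.305 from limma), and its genotypes did not overlap. Cox7a2l is known for a role in joining complexes III and IV into supercomplexes, which were not measured here. It had 6.07, 5.97, and 6.20 in WT and 6.21, 6.16, and 6.19 in Selenbp1-KO, with overlap, and differed by 0.11 (standard error 0.105).

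In complex V, the catalytic head, the membrane ring, and the remaining subunits had medians of 0.12, 0.13, and 0.15, which became 0.01, 0.00, and 0.02 with quantile normalization. Atp5e, the epsilon subunit of the head, had the most positive difference, 0.28 (standard error 0.156, adjusted p = 0.349 from limma), with signals of 6.71, 6.76, and 7.20 in WT and 7.16, 7.15, and 7.21 in Selenbp1-KO. WT replicate 4 was level with the Selenbp1-KO arrays, and with slide row as a block the difference was −0.03. Atp5a1, the alpha subunit, had 7.91, 7.89, and 8.12 in WT and 8.01, 7.94, and 7.96 in Selenbp1-KO, with overlap and a difference of 0.00 (standard error 0.108). With quantile normalization its difference was −0.14 and under the threshold. Atp5g1, Atp5g2, and Atp5g3 encode the same mature ring subunit with different import sequences. They differed by 0.13, 0.04, and 0.14 (standard errors 0.101, 0.0918, and 0.128), and WT replicate 4 was the highest WT array in all 3. The genotypes overlapped in each of them.

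Of the 3 genes outside the mature complexes, Ndufa4l2 was under the threshold. Ndufa4l2 is a relative of Ndufa4 known to be induced by low oxygen and to lower complex I activity. Its RefSeq probe (NM_001098789, mm9 chromosome 10, 126954149 to 126954208) had −1.09, −1.30, and −0.87 in WT and −0.63, −0.57, and −0.74 in Selenbp1-KO. The genotypes did not overlap, and WT replicate 4 was the highest WT array. The difference was 0.44 (standard error 0.14, adjusted p = 0.279 from limma), a fold of 1.35. It was higher in all 19 alternatives and under the threshold in 14, and with slide row as a block it was 0.22 and not under it. It was also not under the threshold without WT replicate 2, WT replicate 3, Selenbp1-KO replicate 1, or Selenbp1-KO replicate 2. Ndufa7 kept its direction in 19 and was under the threshold in 11 of 19 alternatives, and no call held in each single-array omission. Atp5s and Atp5sl differed by 0.04 and −0.04.

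Across genes, the size of the difference went with where in its transcript a probe lies. The files give the first base of each probe in its transcript. Of the 81 members well above background on all arrays, 40 had a probe starting within the first 500 bases, and all 40 were higher, with a median of 0.18. The median was 0.12 for 23 members with a start from 500 to 1000, 0.08 for 14 from 1000 to 2000, and −0.06 for 4 beyond 2000. Across these 81 genes Spearman's rho between start and difference was −0.64 and Pearson's r on log2 of the start was −0.54, as a description across genes, which share the same 6 arrays. Other genes well above background followed the same order, with medians of 0.11 (2059 genes), 0.09 (2526), 0.03 (4667), and −0.05 (7689) in the same 4 classes and a rho of −0.39 over 16941 genes. On this scale the members' medians lay above those of the other genes in the first 3 classes. With quantile normalization or slide row as a block this held in the first class only, and it was not tested.

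**Figure D5:**
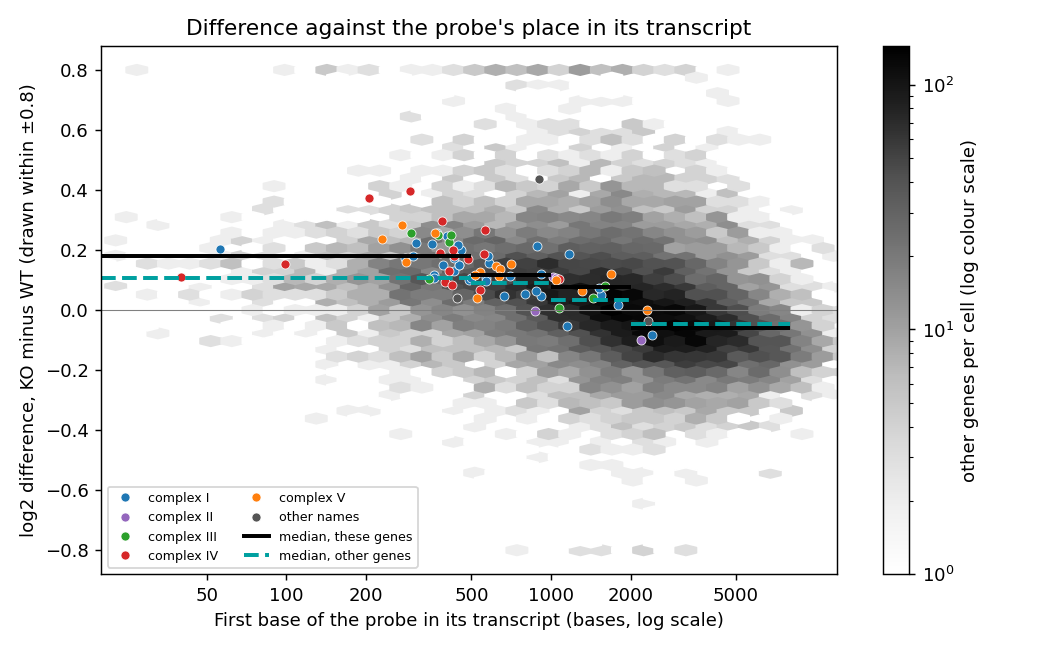
The x axis is the first base of the probe in its transcript in bases (log scale), the y axis the log2 difference, Selenbp1-KO minus WT, drawn within ±0.8; colored points are the member genes by complex, grey cells count the other genes well above background, and lines are medians in 4 classes of start (black members, dashed other genes). Both lines step down, from 0.18 to −0.06 for the members and from 0.11 to −0.05 for the other genes, and with quantile normalization they run from 0.10 to −0.16 and from 0.07 to −0.06.

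The fall from early to late probes was seen on other scales. With quantile normalization the medians of the members in the 4 classes were 0.10, 0.01, −0.04, and −0.16, against 0.07, 0.06, 0.01, and −0.06 for the other genes. With slide row as a block they were 0.08, 0.05, −0.01, and −0.13, against 0.07, 0.07, 0.01, and −0.08. In both fits the members were thus below the other genes from the second class on. The rho over the members was −0.68 and −0.38 in these fits. The larger subunits named above, Sdha, Ndufs1, and Atp5a1, had probes starting at bases 2192, 2411, and 2312, and the 3 of them were the members under the threshold and lower with quantile normalization, whereas 10 members were under it and higher. Among all genes well above background 6.20% were under it and lower in that fit and 7.94% were under it and higher. Across genes, the place of the probe and the size of the subunit cannot be told apart. Between RefSeq probes of 1 gene the difference rose with the start in more genes than it fell in. Of those where it fell, Sdhb had 0.12 at base 310 and 0.11 at 1017, and Atp5h 0.16 at 391 and 0.12 at 514. For Sdha it was −0.10 at both 1512 and 2192. For Atp5a1 it rose, from −0.09 at 1415 to 0.00 at 2312. The part of place and of size was not tested.

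Additional probes of the same genes were read for 35 members, 45 probes in all. Of the 22 with an accession in RefSeq, 20 had the same sign as the brightest probe of their gene, against 13 of 23 without one. Of the 45 probes 8 were under the threshold, 5 higher and 3 lower, against 6.47% and 1.51% of all probes in those directions. Of the 5 higher ones 3 (of Atp5d, Ndufa4l2, and Ndufa7) were well above background on no array, and only those of Ndufb2 and Uqcr10 were so on all 6. The 3 lower ones, of Ndufb2, Ndufv2, and Sdha, all read transcripts without a RefSeq accession in the table. Ndufb2, an accessory subunit of the membrane arm of complex I, showed both directions. Its RefSeq probe (NM_026612, mm9 chr6:39548271-39548330) and its probe of another transcript (ENSMUST00000135239, mm9 chr6:39552854-39552913, of which the first 30 bases are shown) are given because they moved in opposite directions.
Ndufb2, RefSeq probe: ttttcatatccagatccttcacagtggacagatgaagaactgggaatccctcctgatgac
Ndufb2, other probe: ggacaaaagtctgttactatagaaaggctg

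The RefSeq probe of Ndufb2 had 5.16, 5.27, and 5.23 in WT and 5.49, 5.47, and 5.50 in Selenbp1-KO, a difference of 0.26 (standard error 0.0937, adjusted p = 0.279 from limma). The other had −4.37, −4.31, and −4.49 in WT and −4.91, −5.56, and −5.19 in Selenbp1-KO. Each probe separated the genotypes without overlap, in opposite directions. The second was well above background on the 3 WT arrays and on none of the Selenbp1-KO arrays (adjusted p = 0.279 from limma for the difference). Its WT mean lay 1.33-fold above the mean of the lowest signals well above background on the Selenbp1-KO arrays. The second Ndufv2 probe (AK044019) was well above background on the 3 WT arrays and on no Selenbp1-KO array as well, with −5.16, −5.21, and −4.70 in WT and −5.62, −5.84, and −6.53 in Selenbp1-KO, too close to the background for a fold. The RefSeq probe of Ndufv2, a core subunit, differed by 0.12. A probe of Sdha without a RefSeq accession (AK005350) had −3.24, −3.50, and −3.14 in WT and −3.62, −3.52, and −3.80 in Selenbp1-KO, a difference of −0.35 (standard error 0.141, adjusted p = 0.279 from limma), with well measured signals on all 6 arrays and no overlap. A second RefSeq probe of Sdha differed by −0.10, like the brightest. Where these other transcripts stand relative to the coding mRNA was not analysed here.

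The rest of the pathway was read from lists of assembly factors, electron carriers, mitochondrial DNA, and regulators. The list of assembly factors also holds Usmg5 and Atpif1, an inhibitor of ATP synthase. Of its 55 genes tested, 40 were higher, with a median of 0.09 (0.04 with quantile normalization). Under the threshold were 3, all higher, against 6.87% of all genes in that direction. Ndufaf5, an assembly factor that modifies a complex I subunit, had 0.39, 0.52, and 0.68 in WT and 0.88, 0.76, and 0.87 in Selenbp1-KO, a difference of 0.31 (standard error 0.117). Pet100, needed for complex IV assembly, had 2.94, 3.02, and 3.12 in WT and 3.41, 3.40, and 3.31 in Selenbp1-KO, a difference of 0.34 (standard error 0.104). Usmg5, a small subunit of ATP synthase outside the name rule, had 6.33, 6.36, and 6.58 in WT and 6.67, 6.73, and 6.72 in Selenbp1-KO, a difference of 0.28 (standard error 0.112). In all 3 the genotypes did not overlap and the adjusted p was 0.279. Among 19 genes listed with the carriers and coenzyme Q synthesis, 14 were higher, with a median of 0.07, and none was under the threshold. Cyc1 and Ndufab1 on this list are subunits of complexes III and I outside the name rule. They differed by 0.09 and 0.11 (standard errors 0.109 and 0.0972). Of the 14 regulators 10 were lower, with a median of −0.07 on this scale and with quantile normalization alike, and none was under the threshold. The probes of 12 of them start beyond base 2000, a class in which the other genes well above background had a median of −0.05 with 36.1% higher. Ppargc1a, the coactivator that drives mitochondrial biogenesis, is named after its values were seen, with 2.80, 2.84, and 3.06 in WT and 2.42, 2.61, and 2.93 in Selenbp1-KO, overlapping, and a difference of −0.25 (standard error 0.165, adjusted p = 0.45 from limma).

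Of the 13 protein genes of mitochondrial DNA, 11 were read on the array. In these data none was under the threshold, 9 of 11 were higher, and the genotypes overlapped in all 11. Their median was 0.14, but 0.04 with quantile normalization and −0.13 with slide row as a block, where 1 of 11 was higher. COX1, a catalytic subunit of complex IV named here because its spread was wide, had 6.67, 6.96, and 8.51 in WT and 7.61, 8.05, and 8.31 in Selenbp1-KO. WT replicate 4 was its highest array, and the difference of 0.61 had a standard error of 0.5 (adjusted p = 0.561 from limma). The mitochondrial genes therefore gave no difference beyond the spread between mice, and their direction rested on WT replicates 2 and 3.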

How the data were processed

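Kidney RNA of 3 WT and 3 Selenbp1-KO mice was measured on 6 one-color arrays. The authors deposited Feature Extraction output (version 10.7.1.1 per the file headers, 9.5.1.1 per the labels) with background-subtracted linear intensity and a detection p-value per spot, and a table of linear intensity values with equal quartiles in every column. Both were used, the table as an alternative.

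Here log2 of the processed signal minus the array's 75th percentile was taken, flagged spots were left out, spots of a probe were averaged, and probes detected on 1 or more arrays (detection p below 0.05) entered limma (version 3.58.1, R 4.3.3, two-sided, no covariate; statmod 1.5.0). A gene was called at an unadjusted p below 0.05, the study's own cutoff, and adjusted values (Benjamini-Hochberg) run over 56097 probes. A gene was read by its brightest probe. A spot is well above background by the scanner's flag, and a probe when a share of 0.5 or more of its spots are. P-values from limma rest on the spread between 3 mice a genotype drawn toward the prior SD of 0.188 (2.06 prior degrees of freedom). The smallest standard error of a member was thus 0.0908. The number of arrays limits the precision. Probe coordinates are mm9.

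Genes and lists were chosen with earlier results of these data known. Named genes are the members under the threshold, the extremes of each complex, the tissue isoforms, ring genes, Cox7a2l, complex II, members not above background, and list genes under the threshold. Ndufb2, Ndufv2, Uqcrb, Uqcrh, Uqcrq, Uqcr11, Cox7b2, Ppargc1a, Atp5d, Atp5h, Atpif1, Selenbp2, COX1, Cyc1, Ndufab1, Ucp1, Cidea, Adipoq, Cidec, Plin1, Myh7, Tnnt2, and motif genes were named after their values were seen. The pipeline was tested on simulated data.

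Alternatives were normexp correction (offset 50), quantile and median scaling, the authors' intensity table, other filters, use of flagged spots, a trended robust prior in limma, the methods' t-test, slide row and replicate blocks, each array left out, and the mean of a gene's probes. Trend alone was added after seeing the data. Markers of leukocytes, testis, adrenal, and endothelium were read as lists.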

Additional observations from a re-analysis of the deposited data

How the results depend on the processing

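The number of member genes under the threshold was 3 as reported and 13 with quantile normalization, 25 with the authors' processed values, 18 when probes had to be well above background, 33 with limma trend and robust, 20 with trend alone (chosen after seeing the data), 27 with the methods' t-test, 6 with the mean of all probes, and 0 with slide row as a block. The shares of all genes well above background were 5.48% as reported and 14.1%, 14.1%, 10.2%, 12.2%, 12.4%, 11.8%, and 6.37% in the first 7 of these alternatives, so that 13 (15.7%) and 6 (7.23%) of the members lay near them. The member count ranged from 0 to 22 when each array was left out, with 22 without WT replicate 4, 1 without WT replicate 3, and 0 without WT replicate 2, Selenbp1-KO replicate 1, or Selenbp1-KO replicate 2. The count of assembly and partner genes, of 99 tested, was 3 as reported and 11, 11, 8, 20, 17, and 12 in the first 6 of these alternatives. It was 1 with scaling to the median and 0 to 11 when each array was left out. As shares of 99, the counts of 3, 11, 11, and 8 were below the shares of genes well above background in the same settings, and 12 was near its share. The replicate block (WT2 with KO2 and WT3 with KO3, whose deviations correlate at 0.175 and 0.195) gave 4 members; with only 2 shared numbers the samples share a number and no known pairing.

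The median over all members, 0.13 as reported, was 0.024 with quantile normalization, 0.040 with the authors' processed values, 0.052 with slide row as a block, 0.20 with the replicate block, and 0.10 to 0.19 when each array was left out. Those of complexes I, II, III, IV, and V were 0.039, −0.071, 0.055, 0.097, and 0.0060 with quantile normalization, 0.059, −0.033, 0.069, 0.099, and 0.025 with the authors' processed values, and 0.065, −0.022, 0.036, 0.056, and −0.00043 with slide row as a block, and that of complex I was 0.19 with the replicate block and 0.10 to 0.18 when each array was left out.

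Of the 83 members 78 were higher as reported, 54 with quantile normalization, 63 with the authors' processed values, and 57 with slide row as a block. Among the named genes these signs turned. With quantile normalization Sdhb was −0.053, Uqcrfs1 −0.098, Cox5a −0.065, Atp5a1 −0.14, Cox6a1 −0.15, Cox8a −0.059, Atp5g2 −0.045, and Sdhd −0.0029. With the authors' processed values Sdhb was −0.0051, Uqcrfs1 −0.065, Cox5a −0.044, Atp5a1 −0.13, Cox6a1 −0.033, and Atp5g2 −0.033. With slide row as a block Sdhb was −0.032, Uqcrfs1 −0.13, Cox5a −0.0024, Atp5e −0.027, Atp5a1 −0.14, Cox6a1 −0.084, Cox6a2 −0.14, Atp5g2 −0.00043, Atp5g3 −0.086, Cox7a2l −0.014, Sdhc 0.12, and Sdhd −0.011. With normexp Uqcrfs1 was −0.038 and Atp5a1 −0.045, with scaling to the median −0.011 and −0.016, with the replicate block Cox8b was −0.40, and with the mean of all probes Ndufs1 was 0.095 and Atp5a1 −0.046. Leaving out each array gave −0.037 to 0.072 for Uqcrfs1, −0.042 to 0.073 for Atp5a1, −0.062 to 0.071 for Sdhc, and −0.28 to 1.46 for Cox8b.

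The cause of these changes was not tested. Signal over background limits Cox8c, Cox7b2, and the second probes of Ndufb2, Ndufv2, and Uqcrb.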
